A study of Mus musculus with 12 samples.

Results

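The genes described here encode the protein subunits of the respiratory chain and of ATP synthase, from both the nucleus and mitochondrial DNA, in mouse embryonic fibroblasts (MEF) exposed to halofuginone (HF). Members were chosen by gene symbol. A symbol had to start with Ndufa, Ndufb, Ndufc, Ndufs, Ndufv, Uqcr, Cox4 to Cox8, Atp5, mt-Nd, mt-Co, mt-Cytb or mt-Atp, or be Sdha, Sdhb, Sdhc, Sdhd, Cyc1 or Cycs. Of 122 matching symbols, 8 Ndufaf assembly factors and 11 pseudogenes were left out, which gave 103 of the 55536 gene IDs in the count tables. The nucleus encodes 90 of them: 39 of complex I, 4 of complex II, 9 of complex III, 19 of complex IV with Ndufa4 counted there, 18 of complex V and the electron carrier Cycs. Mitochondrial DNA encodes the other 13, of which 7 belong to complex I, 1 to complex III, 3 to complex IV and 2 to complex V.

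MEF are connective tissue cells grown from mouse embryos, and neither strain nor genotype is given in the labels. Control cells were kept for 6 h in high-glucose medium with dialyzed serum, and HF cells in the same medium with 100 nM halofuginone, which is known to inhibit the prolyl-tRNA synthetase activity of EPRS. Total RNA and ribosome footprints (RPF, fragments protected by ribosomes) were each sequenced from 3 control and 3 HF libraries, 12 in all. Whether replicate libraries stem from separate cultures is not stated in the labels. The p-values therefore reflect only how libraries vary, which may be technical.

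Complex I takes electrons from NADH and complex II from succinate. Complex III passes them from ubiquinol to cytochrome c, complex IV hands them to oxygen, and the proton gradient built on the way drives ATP synthase, complex V. Complexes I, III, IV and V are mosaics of nuclear and mitochondrial gene products, while complex II is wholly nuclear. Nuclear subunits are made by cytosolic ribosomes and imported. Mitochondrial mRNAs are cut from long polycistronic transcripts and are read by mitochondrial ribosomes inside the organelle.

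Library totals ran from 718096 to 1697554 counts for RNA and from 562794 to 2527791 for footprints. Nuclear members took 0.964 to 1.01% of the counts in control RNA, 0.750 to 0.758% in HF RNA, 1.81 to 1.89% in control footprints and 1.56 to 1.71% in HF footprints. Mitochondrial members took 0.613 to 0.695% of control RNA, 0.377 to 0.471% of HF RNA and 0.030 to 0.037% of the footprint libraries. The single locus Gm42418 also took less of HF RNA (7.35 to 9.48%) than of control RNA (11.8 to 13.7%). With that locus and every mitochondrial gene left out of the scaling, all 45 calls of members in RNA, 34 in footprints and 15 in translational efficiency remained. Fibroblast markers were present, with 9 of 14 at 10 CPM (counts per 1e6 counts) or more in control RNA and Lum and Postn at 0, and 4 of the 9 tested fell and 2 rose in RNA. Their sum was 8513 to 8917 CPM in control and 10198 to 10574 CPM in HF RNA, and 17253 to 18256 CPM in control and 13861 to 14459 CPM in HF footprints. Lists of epithelial, blood and muscle markers summed to at most 1.93, 5.80 and 2.07 CPM in any RNA library, endothelial markers to at most 1.59 CPM in control and 6.06 to 15.5 CPM in HF RNA, and a neural list to 313 to 356 CPM through Tubb3 and Nes. The part of these shifts in the results below was not tested.

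In total RNA, subunit transcripts of both genomes were lower in HF cells. Summed over the nuclear members, the level was 9876 ± 225 CPM (SD, n = 3) in control and 7485 ± 117 CPM in HF libraries, a ratio of 0.758. Summed over the mitochondrial members it was 6467 ± 422 CPM in control and 4220 ± 408 CPM in HF libraries, a ratio of 0.653. In both sums every HF library lay below every control library. CPM values were scaled by TMM factors, so each change is relative to that of most genes, and in bulk libraries fewer cells of a kind and less RNA per cell cannot be told apart.

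Of the 87 members with enough counts for the test in RNA, 45 fell, 42 did not pass and 0 rose (edgeR's quasi-likelihood test, Benjamini-Hochberg adjusted p under 0.05 over the 9145 genes tested). Over all genes tested, 43.7% were called, 21.4% lower and 22.2% higher. The number of members higher at an unadjusted p under 0.05 was also 0, and DESeq2 called 0 higher and 37 lower. The members' median log2 fold change was −0.57, against −0.02 over all genes tested, and 81 of the 87 had a negative value. In 51 members every HF library lay below every control library and in 0 above, against 25.5% and 25.9% of all genes tested. With each library left out in turn, 25 of the 45 calls held in all 6 fits.

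Calls were spread over the complexes. Of the nuclear members tested in RNA, 17 of 35 in complex I fell (median log2 fold change −0.64), 1 of 4 in complex II (−0.27), 5 of 9 in complex III (−0.46), 7 of 12 in complex IV (−0.43) and 8 of 15 in complex V (−0.63). Of 11 mitochondrial transcripts tested, 7 fell, with a median of −0.51, beside a nuclear median of −0.58. These medians were not tested against each other. All 11 mitochondrial values were negative. Over all genes tested in RNA, 21.4% fell and 22.2% rose.

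**Figure D1:**
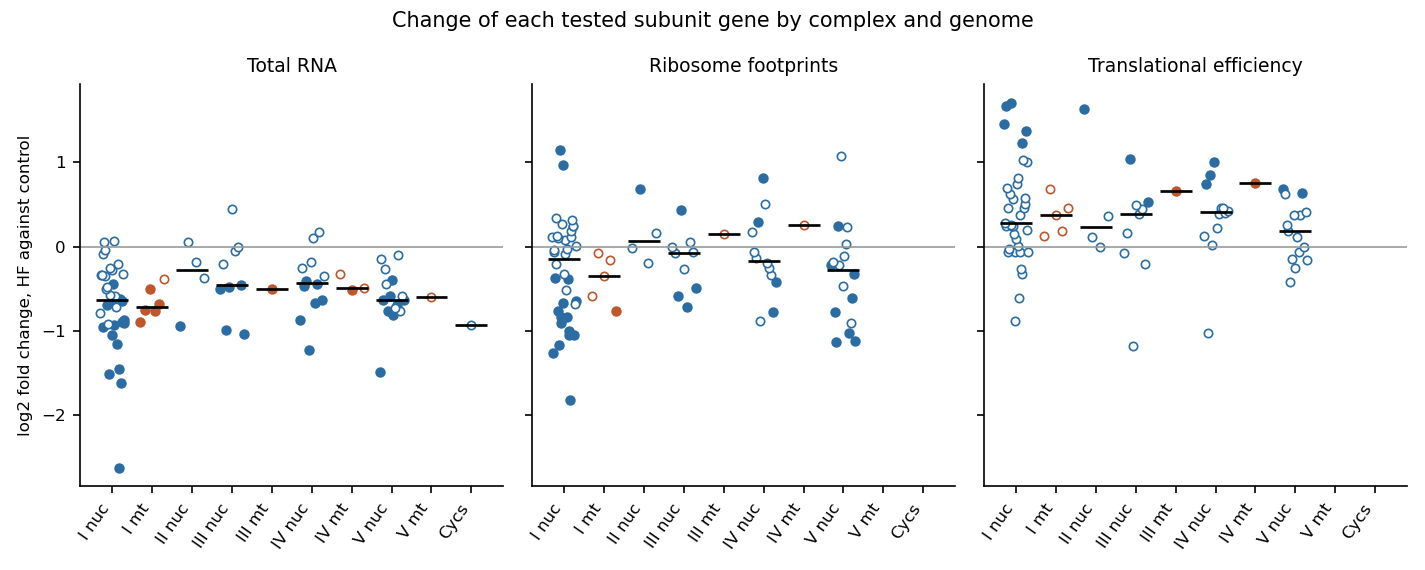
Log2 fold change (HF against control) of each tested subunit gene in total RNA, ribosome footprints and translational efficiency, by complex and genome (nuc, nuclear; mt, mitochondrial). Each point is a gene, filled where the edgeR adjusted p was under 0.05 and open where it was not, and bars are medians. In RNA 45 points are filled and all lie below 0, in footprints 27 filled points lie below and 7 above 0, and in translational efficiency the 15 filled points lie above 0.

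Footprints on the same genes changed in both directions. The nuclear sum was 18759 ± 390 CPM in control and 17681 ± 556 CPM in HF libraries, a ratio of 0.943, with every HF library below every control library. The mitochondrial sum was 352 ± 26.4 CPM in control and 337 ± 12.6 CPM in HF libraries, and the groups overlapped. Of 84 members tested, 27 fell, 7 rose and 50 did not pass (edgeR adjusted p under 0.05 over 8380 protein-coding genes), where 43.2% of all genes tested were called, 20.9% lower and 22.4% higher. The median was −0.19, against −0.02 over all genes tested. In 30 members every HF library lay below every control library and in 11 above, against 26.2% and 25.2% of all genes tested. Of the 34 calls 17 held whichever library was left out, and the higher count was 4 without RPF control 1.

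By complex, 14 nuclear members of complex I fell in footprints and 2 rose of 36 tested. In complex II 1 of 4 rose, in complex III 3 of 9 fell and 1 rose, in complex IV 2 of 12 fell and 2 rose, and in complex V 7 of 16 fell and 1 rose. Over all genes tested 20.9% fell and 22.4% rose. Several of these counts are near those shares, and the complexes were not tested against each other. Summed footprints of the nuclear complex I genes were 4362 to 4422 CPM in control and 3830 to 3891 CPM in HF libraries. Those of complex IV were 2392 to 2501 CPM in control and 2572 to 2734 CPM in HF libraries, and those of complex II 931 to 961 and 968 to 1044 CPM. So, with TMM scaling, the footprint sums of complexes II and IV lay above the controls in every HF library while their RNA sums lay below. The footprint steps were small, with ratios of 1.06 in complex II and 1.07 in complex IV. In complex II the lowest HF library lay just above the highest control (968 and 961 CPM). Upper-quartile scaling gave a lower nuclear footprint median, so steps of this size depend on the scaling. A single gene carried each of these footprint differences: Cox4i1 had a mean of 349 CPM in control and 606 CPM in HF libraries, and Sdhb 106 and 173 CPM, each a larger step than that of its complex. The median footprint change of single genes was −0.17 in complex IV and 0.07 in complex II.

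**Figure D2:**
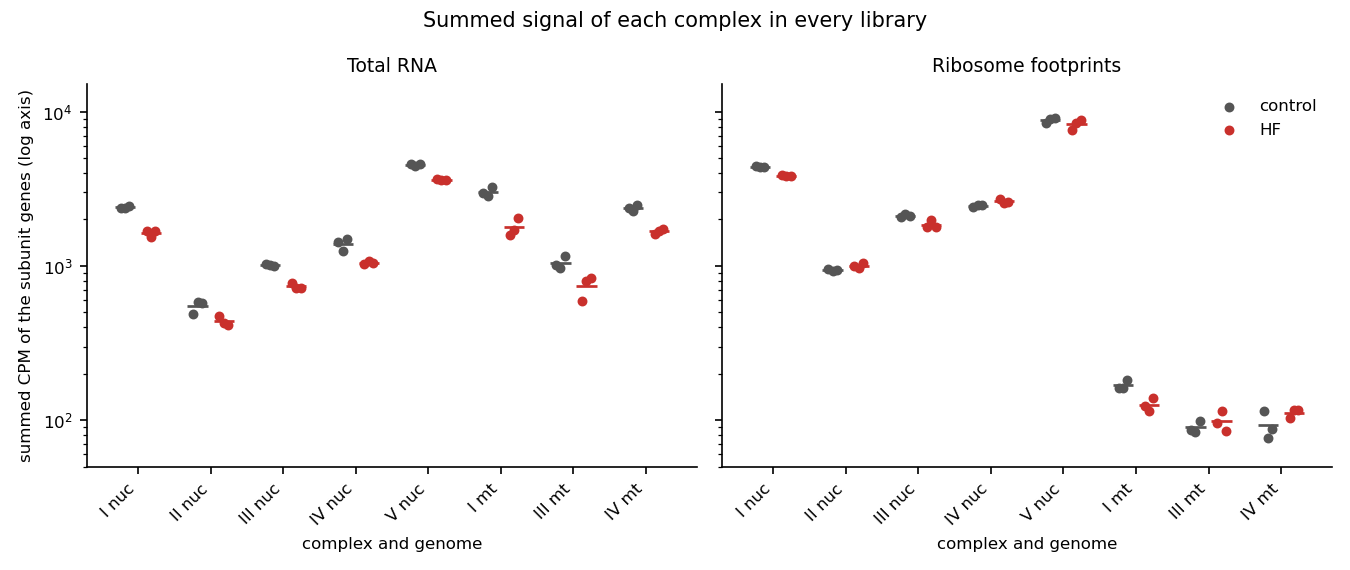
Summed CPM of the subunit genes of each complex, by genome, in every library of total RNA and of ribosome footprints (log axis; points are libraries, bars are means of 3 libraries). RNA sums of HF libraries lie below the control libraries in every set shown. In footprints the HF sums of nuclear complexes II and IV lie slightly above the controls, through Sdhb and Cox4i1, and the mitochondrial sets lie far lower than in RNA.

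Translational efficiency (TE) is the change of a gene's footprints relative to the change of its RNA, tested as an interaction term between assay and treatment in 12 libraries. Of 82 members tested, 15 were higher in HF cells, 67 did not pass and 0 were lower (edgeR adjusted p under 0.05 over 8279 genes), where 13.5% of all genes tested were called, 5.95% higher and 7.51% lower. At an unadjusted p under 0.05, 25 were higher and 4 lower, and DESeq2 called 16 higher and 0 lower. The members' median was 0.37, against 0.01 over all genes tested. The 15 were the nuclear Ndufb2, Ndufb5, Ndufb7, Ndufb8, Ndufv3, Sdhb, Cyc1, Uqcr11, Cox4i1, Cox6b1, Cox8a, Atp5d and Atp5j and the mitochondrial mt-Cytb and mt-Co1. The call held in each of the 12 fits that left out a library for Ndufb2, Ndufb5, Ndufb7, Ndufb8, Sdhb, Cox4i1, Cox8a and mt-Co1.

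**Figure D3:**
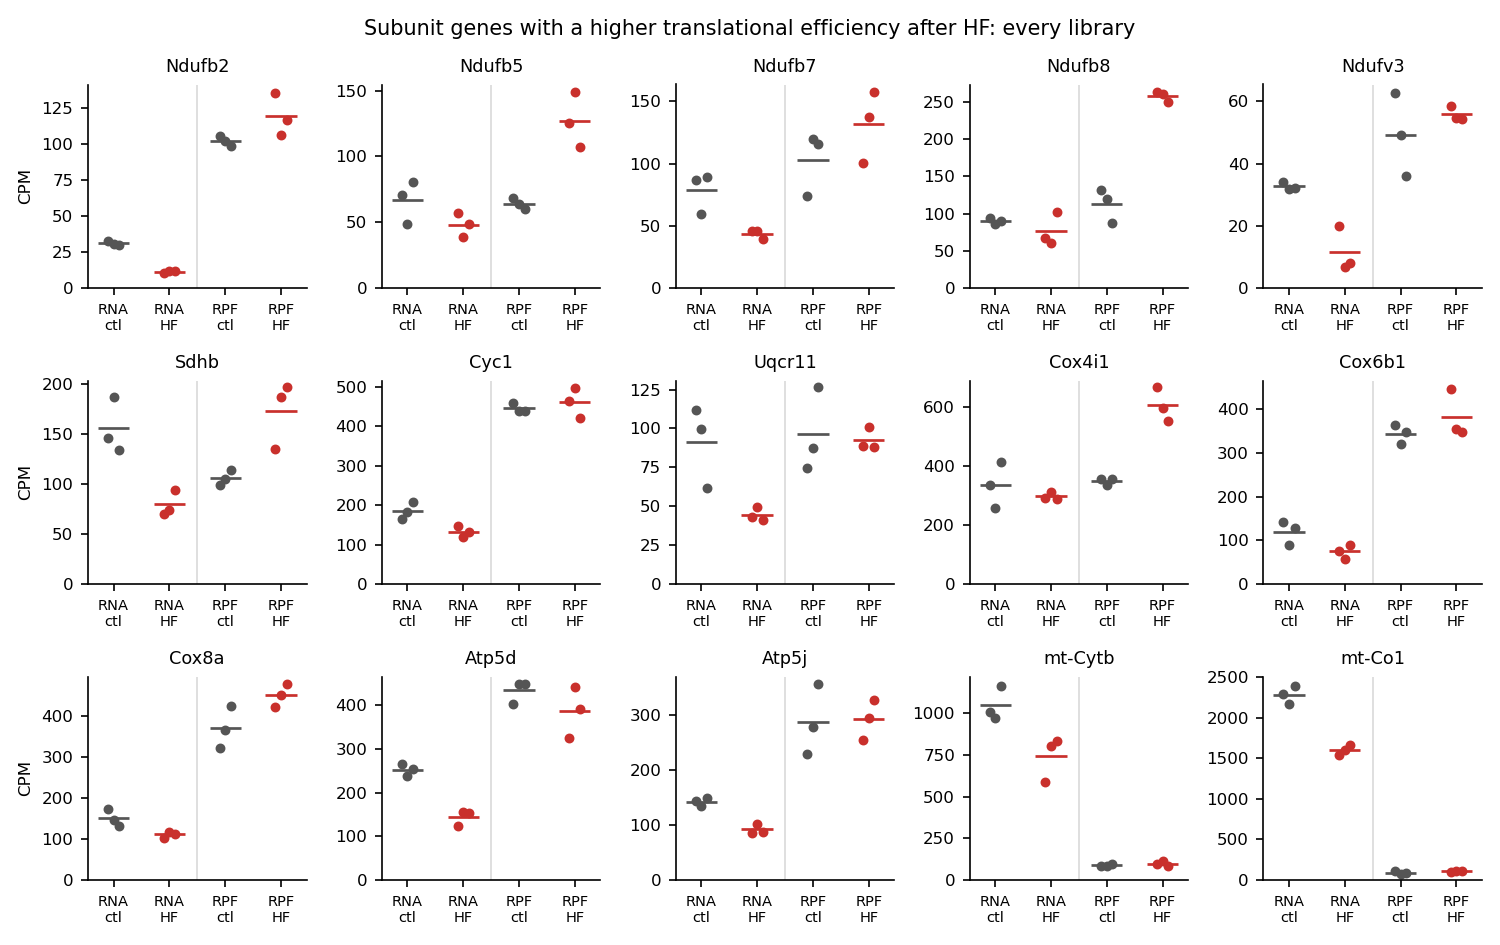
CPM of the 15 members called higher in translational efficiency, in every library (grey, control; red, HF; bars are means of 3 libraries; each panel starts at 0). In Ndufb8, Ndufb5, Sdhb and Cox4i1 the HF footprints lie above every control library, while in Ndufv3, Uqcr11 and Atp5d the HF RNA lies below every control library and the footprints overlap.

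Over the 82 members tested in both assays, 20 fell in both, 2 fell in RNA and rose in footprints, 23 fell in RNA alone, 7 fell in footprints alone, 5 rose in footprints alone and 25 were called in neither. Across these 82 genes the log2 fold changes of the assays had a Pearson correlation of 0.43 and a Spearman correlation of 0.38. The genes share the same 12 libraries, so this is a description and not a test. The same counts and correlations over all genes are not given here, so they cannot be read as particular to the members.

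**Figure D4:**
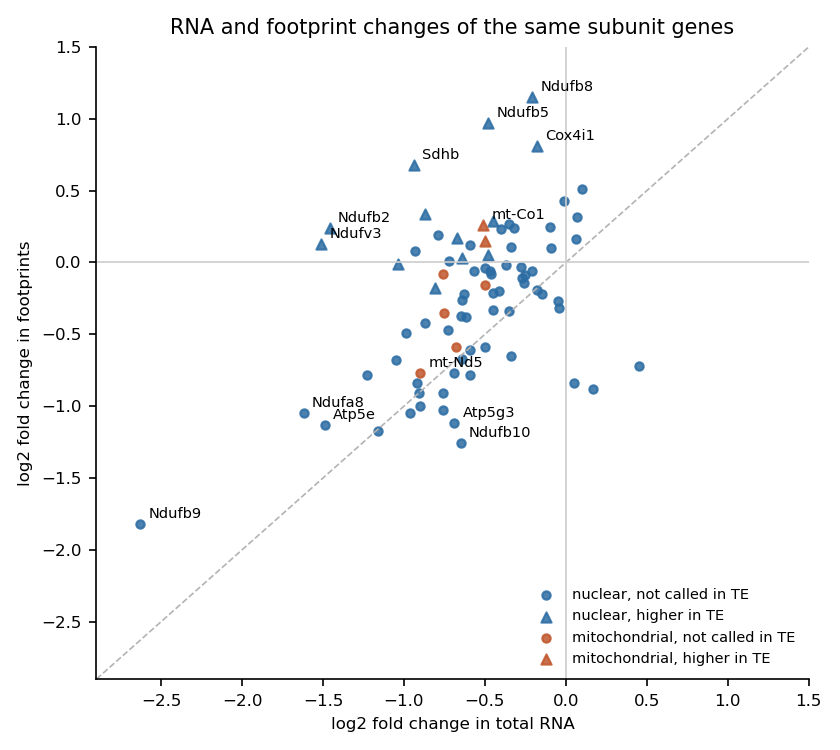
Log2 fold change in total RNA against log2 fold change in ribosome footprints for the 82 members tested in both assays (blue, nuclear; orange, mitochondrial; triangles, higher translational efficiency). The dashed line marks equal change. Ndufb9 lies lowest on both axes, and Ndufb8, Ndufb5, Cox4i1 and Sdhb lie above 0 in footprints and below 0 in RNA.

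Since many nuclear subunit transcripts fell together, their promoters were searched for the letters of factors known to bind respiratory genes. RefSeq windows of 300 bases (GRCm38.p6, 250 before to 50 after the start) were found for 71 of 89 nuclear members by symbol. Both strands were read, and a match describes the letters and not binding. The ETS letters CCGGAAG were in 22.5% of the members' promoters, against 12.9% of all 17492 protein-coding genes with a window and 23.5% of the 6987 tested in RNA. Within the members they were in 12 of 34 that fell in RNA (35.3%), in 3 of 29 that were tested and did not pass (10.3%), and in 6 of 11 with higher TE (54.5%). The 6 with higher TE (Ndufb7, Sdhb, Uqcr11, Cox6b1, Cox8a and Atp5j) are all among the 12 that fell in RNA. TE is computed from the same RNA values, so these splits are not independent. They were looked at after the calls were known and have no test.

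The YY1 letters AAGATGGC were in 14.1% of the members' promoters, against 3.57% of all and 6.24% of tested genes, and the NRF1 letters, GCGCA followed at once by TGCGC, in 7.04%, against 1.47% and 2.72%. The ERRalpha letters TCAAGGTCA were in 2 of 71 (2.82%), against 0.377% of all and 0.258% of tested genes. Split as for ETS, the YY1 letters were in 3 of 34 that fell in RNA (8.82%) and 7 of 29 that did not pass (24.1%). The NRF1 letters were in 2 (5.88%) and 3 (10.3%), and the ERRalpha letters in 1 and 1. Of the 11 with higher TE, 2 held the YY1 letters (18.2%) and 0 the NRF1 or ERRalpha letters. These splits have no test either. The letters TGATGCAA, a site of the stress factor ATF4, were in 0 of 71, against 1.01% of all and 0.615% of tested genes, too rare for a 0 in 71 to say anything.

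The promoters of Ndufb7 of complex I, Uqcr11 of complex III, Cox6b1 of complex IV and Atp5j of complex V are shown because these genes fell in RNA, had higher TE and hold the ETS letters wholly before a RefSeq start. They were chosen after their values were seen. Each run is the 100 bases before a RefSeq start in GRCm38.p6, 5′ to 3′ on the gene's strand. The ETS letters on either strand, and in Atp5j also the YY1 letters, are in capitals. The windows are chr8:83566658-83566757 on the plus strand for Ndufb7, and chr10:80406822-80406921, chr7:30626115-30626214 and chr16:84834977-84835076 on the minus strand for Uqcr11, Cox6b1 and Atp5j. For Ndufb7, Uqcr11 and Cox6b1 the window adjoins the annotated 5′ end of the gene. The Atp5j gene runs from 84827871 to 84835857, so its window lies before an alternative start inside the gene.
Ndufb7: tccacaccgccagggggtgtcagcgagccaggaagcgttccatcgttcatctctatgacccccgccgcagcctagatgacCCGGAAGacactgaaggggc
Uqcr11: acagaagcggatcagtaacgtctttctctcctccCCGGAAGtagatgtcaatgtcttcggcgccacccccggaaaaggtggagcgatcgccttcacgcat
Cox6b1: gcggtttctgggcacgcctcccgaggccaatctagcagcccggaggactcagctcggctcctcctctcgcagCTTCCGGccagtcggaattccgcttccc
Atp5j: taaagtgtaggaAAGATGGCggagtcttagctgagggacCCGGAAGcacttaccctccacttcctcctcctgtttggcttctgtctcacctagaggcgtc
The first capital of the ETS letters stood at position −20 in Ndufb7, −66 in Uqcr11, −28 in Cox6b1 and −61 in Atp5j. Positions are counted back from the start used, which in Atp5j is the one inside the gene. Cox6b1 carried the letters on the other strand, so its run reads CTTCCGG. The log2 fold changes of these genes were −0.87, −1.04, −0.67 and −0.64 in RNA and 0.34, −0.01, 0.17 and 0.03 in footprints, where none of the 4 passed.

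Complex I is the largest of the complexes, an L-shaped assembly with a matrix arm that binds NADH and ubiquinone and a membrane arm that pumps protons. Its lowest member was Ndufb9 (ENSMUSG00000022354, chromosome 15 from 58933801 to 58939516 in GRCm38), an accessory subunit of the membrane arm. Ndufb9 RNA was 69.8, 63.8 and 73.4 CPM in control libraries 1 to 3 and 10.4, 3.87 and 16.8 CPM in HF libraries 1 to 3. Its footprints were 58.2, 77.7 and 55.6 CPM in control and 17.8, 24.9 and 11.3 CPM in HF libraries. Every HF library was low in both assays, with log2 fold changes of −2.63 in RNA (SE 0.33, edgeR adjusted p = 4e-10) and −1.82 in footprints (SE 0.29, edgeR adjusted p = 6.3e-06). Ndufa8, another accessory subunit, was named after its values were seen. Its RNA was 106, 88.8 and 98.2 CPM against 34.6, 21.3 and 37.7 CPM in HF libraries, and its footprints 152, 147 and 122 CPM against 75.8, 69.6 and 54.5 CPM. The groups lay apart in both assays, with log2 fold changes of −1.62 (SE 0.23) and −1.05 (SE 0.18).

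Other Ndufb genes, which encode accessory subunits around the membrane arm, went the other way in footprints. Ndufb8 (ENSMUSG00000025204, chromosome 19 from 44548571 to 44555442) had the highest footprint change of the tested complex I genes. Its footprints were 131, 120 and 87.6 CPM in control and 263, 260 and 250 CPM in HF libraries. The HF values lay close together and above all controls (log2 fold change 1.15, SE 0.15, edgeR adjusted p = 1.8e-07). Ndufb8 RNA was 93.5, 86.0 and 90.0 CPM in control and 66.7, 60.9 and 101 CPM in HF libraries, which overlapped (−0.21, SE 0.20, edgeR adjusted p = 0.41). Its TE change was 1.37 (SE 0.25, edgeR adjusted p = 0.00022).

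Ndufb5 footprints were 68.7, 63.7 and 59.8 CPM in control and 125, 149 and 107 CPM in HF libraries, again without overlap (log2 fold change 0.97, SE 0.19, edgeR adjusted p = 7.6e-05). Its RNA, at 70.6, 48.5 and 80.7 CPM against 57.2, 38.7 and 48.7 CPM, did not pass (−0.48, edgeR adjusted p = 0.096), and passed only without RNA control 2 (−0.64, adjusted p = 0.031). Its TE change was 1.46 (SE 0.30, edgeR adjusted p = 0.00082). Ndufb8 and Ndufb5 thus had 2.23 and 1.96 times the control footprints on RNA that was not called.

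In Ndufb2, Ndufv3 and Ndufb7 the RNA fell and the footprints did not pass the test. Ndufb2 RNA was 32.5, 30.5 and 30.0 CPM in control and 10.4, 11.6 and 11.6 CPM in HF libraries (log2 fold change −1.46, SE 0.41, edgeR adjusted p = 0.0025). Its footprints were 105, 102 and 98.8 CPM in control and 135, 106 and 116 CPM in HF libraries (0.24, SE 0.17, edgeR adjusted p = 0.26). The RNA groups lay far apart, and the lowest HF footprint library lay just above the highest control. The TE change of 1.71 (SE 0.33, edgeR adjusted p = 0.00052) was the largest of the members tested, on few RNA counts. In HF cells Ndufb2 also had the most footprints per RNA of the nuclear members, a log2 ratio of 3.41 ± 0.26 (SD, n = 3). Such ratios divide same-numbered libraries, which were not paired by the data, so their SD depends on that matching.

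Ndufv3, a small subunit of the NADH-binding part, had RNA of 34.1, 31.9 and 32.1 CPM in control and 19.9, 6.77 and 8.12 CPM in HF libraries (log2 fold change −1.51, SE 0.41, edgeR adjusted p = 0.0021). All HF libraries were low, HF 1 less so than the other two. Ndufv3 footprints overlapped, at 62.6, 49.2 and 36.2 CPM against 58.5, 54.7 and 54.5 CPM, and the TE change of 1.67 (edgeR adjusted p = 0.012) was lost without RNA HF 3 (1.39, adjusted p = 0.063). Ndufb7, whose promoter is printed above, had RNA of 87.2, 59.6 and 88.9 CPM against 45.9, 45.5 and 39.4 CPM (−0.87, SE 0.23, edgeR adjusted p = 0.0013). Its footprints were 73.9, 120 and 115 CPM against 100, 138 and 158 CPM (0.34, edgeR adjusted p = 0.18), and passed only without RPF HF 1 (0.56, adjusted p = 0.039). The Ndufb7 groups lay apart in RNA and overlapped in footprints, and its TE change was 1.23 (SE 0.31, edgeR adjusted p = 0.0068).

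The matrix arm holds the flavin and the chain of iron-sulfur clusters. Of its 16 nuclear genes 8 fell in RNA and 6 in footprints (edgeR adjusted p under 0.05), where 21.4% and 20.9% of all genes tested fell. Ndufv1, Ndufv2, Ndufs8, Ndufs1 and Ndufs7 are described because they carry the flavin or clusters, and were chosen after their values were seen. Ndufv1, the flavin-bearing subunit that oxidises NADH, fell by 0.62 in RNA (SE 0.15) and by 0.38 in footprints (SE 0.14), and its partner Ndufv2 fell by 0.65 (SE 0.19) and 0.37 (SE 0.14). The footprint call of Ndufv1 was lost without RPF control 2 (−0.40, adjusted p = 0.055), RPF HF 2 (−0.34, 0.073) or RPF HF 3 (−0.31, 0.075). That of Ndufv2 was lost without RPF control 1 (−0.39, adjusted p = 0.08), RPF control 3 (−0.36, 0.079), RPF HF 1 (−0.34, 0.097) or RPF HF 3 (−0.31, 0.091). Ndufs8, which holds a pair of iron-sulfur clusters, fell by 0.69 in RNA (SE 0.21), a call lost without RNA HF 2 (−0.52, adjusted p = 0.064), and by 0.77 in footprints (SE 0.18). Ndufs1, the large iron-sulfur subunit, did not pass in RNA (−0.09, edgeR adjusted p = 0.71) or in footprints (0.10, 0.55). Nor did Ndufs7 in RNA (−0.34, edgeR adjusted p = 0.17), though its HF libraries lay below the controls, or in footprints (0.11, 0.64). The highest RNA change of the complex was that of Ndufs4, an accessory subunit of this arm, at 0.07 (edgeR adjusted p = 0.87), on overlapping values of 38.1, 48.5 and 35.2 CPM against 50.2, 43.5 and 33.6 CPM.

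Among the other 23 nuclear complex I genes, 9 of 19 tested in RNA fell, and in footprints 8 of 20 fell and 2 rose, against 21.4% lower in RNA and 20.9% lower and 22.4% higher in footprints over all genes tested. Ndufb10, an accessory subunit of the membrane arm also named after its values were seen, had footprints of 257, 242 and 316 CPM in control and 102, 116 and 124 CPM in HF libraries (log2 fold change −1.26, SE 0.15, edgeR adjusted p = 4.3e-08). No complex I gene but Ndufb9 was lower in that assay. Ndufb10 RNA fell by 0.65, a call lost without RNA control 1 (−0.46, adjusted p = 0.14) or without RNA HF 2 (−0.53, 0.063). Within the Ndufb genes tested, footprint changes thus ran from −1.82 in Ndufb9 to 1.15 in Ndufb8.

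Complex II, succinate dehydrogenase, is also an enzyme of the citric acid cycle. Of its 4 genes only Sdhb passed in either assay. Sdhb (ENSMUSG00000009863, chromosome 4 from 140961271 to 140979198), the iron-sulfur subunit, had RNA of 146, 187 and 134 CPM in control and 70.1, 74.5 and 93.9 CPM in HF libraries. Its footprints were 98.8, 105 and 114 CPM in control and 135, 187 and 197 CPM in HF libraries. The groups did not overlap in either assay and moved in opposite directions, with log2 fold changes of −0.94 in RNA (SE 0.17, edgeR adjusted p = 5.8e-06) and 0.68 in footprints (SE 0.17, edgeR adjusted p = 0.0015). The TE change was 1.64 (SE 0.25, edgeR adjusted p = 1.8e-05), the smallest adjusted p among the members, and all 3 calls held whichever library was left out.

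In control cells Sdhb had the fewest footprints per RNA of the 75 nuclear members with counts in every library. Its log2 ratio over same-numbered, unpaired libraries was −0.54 ± 0.30 (SD, n = 3). Ndufs6 (−0.46 ± 0.30) and Atp5f1 (−0.39 ± 0.19) lay within that spread. In HF cells the Sdhb ratio was 1.12 ± 0.19, where the median of the nuclear members was 1.26. Sdha, the flavoprotein that oxidises succinate, had RNA of 120, 151 and 163 CPM against 164, 136 and 150 CPM and footprints of 316, 283 and 282 CPM against 328, 383 and 280 CPM, and both overlapped. The membrane anchors Sdhc and Sdhd overlapped too. Sdhc RNA was 105, 128 and 135 CPM against 135, 94.8 and 94.5 CPM, with footprints of 307, 293 and 296 CPM against 274, 210 and 297 CPM. Sdhd RNA was 117, 119 and 144 CPM against 101, 120 and 76.5 CPM, with footprints of 238, 250 and 255 CPM against 266, 187 and 270 CPM. Sdha, Sdhc and Sdhd did not pass in RNA (edgeR adjusted p = 0.76, 0.42 and 0.076), though Sdhd did without RNA HF 2 (−0.50, adjusted p = 0.037).

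In complex III the core protein Uqcrc1 and the hinge protein Uqcrh fell in both assays, calls that held in every fit with a library left out, and both were named after their values were seen. Uqcrc1 fell by 0.50 in RNA (SE 0.14) and by 0.59 in footprints (SE 0.12), and Uqcrh by 0.99 (SE 0.17) and 0.49 (SE 0.12). Cyc1, the cytochrome c1 that hands electrons to cytochrome c, had RNA of 165, 182 and 209 CPM in control and 146, 120 and 131 CPM in HF libraries, and footprints of 460, 438 and 440 CPM against 464, 497 and 421 CPM. The RNA groups did not overlap and the footprint groups did. The RNA call of Cyc1 (−0.48, edgeR adjusted p = 0.0056) was lost without RNA control 3 (−0.38, adjusted p = 0.059), and its TE call (0.53, edgeR adjusted p = 0.035) held in 4 of 12 such fits, with values of 0.43 to 0.60.

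The small complex III subunits held the highest and lowest values. Uqcr11 RNA was 112, 99.9 and 62.0 CPM in control and 43.3, 49.3 and 41.2 CPM in HF libraries, without overlap (log2 fold change −1.04, SE 0.23, edgeR adjusted p = 0.00011). Its footprints were 74.7, 87.4 and 127 CPM against 88.6, 101 and 88.2 CPM (−0.01), with overlap, and its TE call (1.04, edgeR adjusted p = 0.024) held in 5 of 12 fits with a library left out, with values of 0.83 to 1.26. Uqcrq, a ubiquinone-binding accessory protein, had footprints of 130, 152 and 129 CPM against 177, 184 and 199 CPM, all HF libraries higher (0.43, SE 0.15, edgeR adjusted p = 0.02), and overlapping RNA of 122, 107 and 125 CPM against 110, 125 and 118 CPM. That footprint call was lost without RPF control 1 (0.36, adjusted p = 0.12), RPF control 3 (0.37, 0.082) or RPF HF 3 (0.38, 0.052). Uqcrb, another small subunit, had few RNA counts that overlapped (11.9, 13.9 and 6.20 CPM against 16.5, 11.6 and 15.1 CPM) and footprints of 59.4, 49.8 and 72.3 CPM against 37.9, 31.5 and 37.6 CPM that did not (−0.72, SE 0.25, edgeR adjusted p = 0.021). That call was lost without RPF control 1 (−0.75, adjusted p = 0.052), RPF control 3 (−0.64, 0.067) or RPF HF 2 (−0.65, 0.058).

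Complex IV, cytochrome c oxidase, has several subunits with a common and a tissue-restricted isoform. Cox4i1 (ENSMUSG00000031818, chromosome 8 from 120668225 to 120674209), the common form of subunit 4, had the highest footprint change of the complex. Its footprints were 355, 335 and 356 CPM in control and 669, 597 and 552 CPM in HF libraries (log2 fold change 0.81, SE 0.11, edgeR adjusted p = 2.4e-07). Its RNA was 335, 258 and 414 CPM in control and 293, 312 and 288 CPM in HF libraries. The footprint groups lay far apart and the RNA groups overlapped (−0.18, edgeR adjusted p = 0.21), though RNA passed without RNA control 2 (−0.33, adjusted p = 0.025). The TE change was 1.00 (SE 0.18, edgeR adjusted p = 0.00015). The hypoxia-linked isoform Cox4i2 had 0 counts in every library.

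Cox8a, the common form of a small subunit, fell in RNA and rose in footprints, as Sdhb did, but with calls that depended on single libraries. Cox8a RNA was 173, 147 and 132 CPM against 103, 118 and 112 CPM (log2 fold change −0.45, edgeR adjusted p = 0.017), and footprints were 321, 365 and 424 CPM against 422, 451 and 477 CPM (0.29, edgeR adjusted p = 0.044). The RNA groups lay apart, and the footprint groups overlapped by the lowest HF and the highest control library. The RNA call was lost without RNA control 1 (−0.33, adjusted p = 0.15), RNA HF 1 (−0.36, 0.098) or RNA HF 3 (−0.43, 0.063). The footprint call was lost without RPF control 1 (0.17, adjusted p = 0.35), RPF control 2 (0.27, 0.13), RPF HF 2 (0.28, 0.082) or RPF HF 3 (0.24, 0.12). The TE change of Cox8a, 0.75 (SE 0.19, edgeR adjusted p = 0.0068), held in all 12 fits.

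Cox6b1, which faces the intermembrane space, had RNA of 141, 90.1 and 127 CPM against 76.2, 58.0 and 90.4 CPM, and footprints of 365, 320 and 348 CPM against 446, 355 and 347 CPM. Both pairs of groups overlapped, in RNA only by the highest HF library. Its RNA call (−0.67, edgeR adjusted p = 0.0025) and TE call (0.85, edgeR adjusted p = 0.0079) were both lost without RNA control 1 (−0.53, adjusted p = 0.058, and 0.69, adjusted p = 0.059).

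The isoforms known from muscle, testis or other tissues were at or near 0. Besides Cox4i2, the genes Cox6b2, Cox7a1, Cox7b2, Cox8b and Cox8c had 0 counts in all 12 libraries, as had a second gene ID for Atp5o. Over 3 libraries a count of 0 allows up to 1.01 CPM of unscaled counts in control RNA, 0.773 in HF RNA, 0.611 in control footprints and 0.949 in HF footprints (3 counts per group, counting error only). Cox6a2, the muscle form of subunit 6a, had 2 counts in each of 2 HF libraries and 0 elsewhere. Its common counterpart Cox6a1 had RNA of 189, 162 and 195 CPM against 139, 127 and 91.6 CPM (log2 fold change −0.64, SE 0.15, edgeR adjusted p = 0.00045), with every HF library low. Cox6a1 footprints of 231, 256 and 214 CPM against 252, 172 and 139 CPM overlapped, and passed only without RPF HF 1 (−0.58, adjusted p = 0.0051). Cox7a2, the common form of subunit 7a, had RNA of 69.8, 101 and 109 CPM against 42.4, 59.0 and 50.4 CPM, also lower in every HF library (−0.87, SE 0.22, edgeR adjusted p = 0.00082). Its footprints of 132, 144 and 113 CPM against 93.1, 96.1 and 109 CPM lay apart (−0.42, edgeR adjusted p = 0.049), but the call held in 2 of 6 fits with a library left out, whose values ran from −0.52 to −0.35.

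Cox7a2l, a factor of respiratory supercomplexes, had the highest RNA change of the complex IV genes (0.17, edgeR adjusted p = 0.68) and the lowest footprint change (−0.88, edgeR adjusted p = 0.20). Its RNA was 35.7, 19.4 and 43.4 CPM against 34.6, 34.8 and 42.9 CPM, and its footprints 13.7, 20.6 and 16.7 CPM against 11.1, 0 and 15.0 CPM, all overlapping. Cox5b, a zinc-binding subunit, had the lowest RNA change (−1.23, edgeR adjusted p = 0.044), on values of 27.0, 5.55 and 27.9 CPM against 5.20, 7.74 and 12.8 CPM that overlapped, and the call held in 2 of 6 fits with a library left out (−1.65 to −0.94). Cox5b footprints, at 56.2, 61.9 and 70.9 CPM against 34.0, 36.5 and 39.4 CPM, did not overlap (−0.78, edgeR adjusted p = 0.01), though the call was lost without RPF HF 1 (−0.70, adjusted p = 0.057).

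Ndufa4 is named for complex I and counted here in complex IV. Its RNA was 155, 139 and 178 CPM against 107, 114 and 119 CPM, without overlap, and its footprints of 324, 314 and 364 CPM against 302, 317 and 345 CPM overlapped. The RNA call (−0.47, edgeR adjusted p = 0.0098) was lost without RNA control 3 (−0.38, adjusted p = 0.078) or without RNA HF 1 (−0.40, 0.061). Its isoform Ndufa4l2 had at most 1.59 CPM of RNA and 14.6 CPM of footprints in any library and was not tested.

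In complex V the sums of the catalytic F1 head are mostly those of its most abundant genes, Atp5b (mean of 3774 CPM of footprints in control libraries) and Atp5a1 (1880 CPM). The 5 F1 genes summed to 3324 ± 78.6 CPM of RNA in control and 2848 ± 68.9 CPM in HF libraries (ratio 0.857), and their footprints to 6807 ± 286 and 6949 ± 700 CPM (ratio 1.02, overlapping). The 11 genes of the membrane part and stalk summed to 1180 ± 8.29 and 771 ± 44.6 CPM of RNA (ratio 0.654) and to 2036 ± 57.8 and 1375 ± 76.3 CPM of footprints (ratio 0.675), without overlap in either assay. Gene by gene the parts were close, with median log2 fold changes of −0.59 in F1 and −0.63 in the rest in RNA, and −0.22 and −0.33 in footprints. In footprints 3 of the 5 F1 genes fell and 1 rose, and 4 of the other 11 fell, where 20.9% of all genes tested fell and 22.4% rose. The difference between the ratios was not tested.

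Atp5b (ENSMUSG00000025393, chromosome 10 from 128083307 to 128090388), the catalytic beta subunit, had RNA of 1758, 1795 and 1746 CPM in control and 1711, 1612 and 1614 CPM in HF libraries. Its footprints were 3578, 3882 and 3863 CPM in control and 3891, 4458 and 5162 CPM in HF libraries, where the lowest HF library lay only just above the highest control. The footprint change of 0.25 (SE 0.07, edgeR adjusted p = 0.0065) was lost without RPF control 1 (0.19, adjusted p = 0.076), without RPF HF 3 (0.14, 0.12) and with upper-quartile scaling (0.17, 0.06), and RNA did not pass (−0.10, edgeR adjusted p = 0.31).

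Atp5e, the epsilon subunit of the same head, went down in both assays. Its RNA was 102, 92.9 and 138 CPM against 27.7, 49.3 and 41.7 CPM (log2 fold change −1.49, SE 0.22, edgeR adjusted p = 6.3e-08), and its footprints 127, 140 and 160 CPM against 56.8, 79.5 and 62.0 CPM (−1.13, SE 0.19, edgeR adjusted p = 1.3e-05). All HF libraries of Atp5e were low. Atp5d, the delta subunit, had RNA of 266, 237 and 254 CPM against 124, 156 and 152 CPM (−0.81, edgeR adjusted p = 6.2e-07), while its footprints of 403, 449 and 448 CPM against 325, 441 and 391 CPM overlapped. Its TE call (0.64, edgeR adjusted p = 0.016) was lost without RNA control 1 (0.58, adjusted p = 0.052), RNA HF 1 (0.51, 0.077) or RPF HF 2 (0.51, 0.069). The gamma subunit Atp5c1, named after its values were seen, fell by 0.59 in RNA (SE 0.13) and 0.61 in footprints (SE 0.11).

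Subunit c, the proton-driven rotor, is encoded by Atp5g1, Atp5g2 and Atp5g3, which make the same mature protein. Atp5g3 RNA was 511, 533 and 497 CPM in control and 286, 361 and 307 CPM in HF libraries (log2 fold change −0.69, SE 0.11, edgeR adjusted p = 1.2e-07). Its footprints were 681, 722 and 682 CPM in control and 354, 320 and 274 CPM in HF libraries (−1.12, SE 0.11, edgeR adjusted p = 5.2e-10), the smallest adjusted p of the members in that assay. The groups lay apart in both. Atp5g1 had 12.5 to 27.7 CPM of RNA in control and 11.6 to 13.5 CPM in HF libraries, and Atp5g2 15.9 to 16.6 and 3.46 to 13.5 CPM. Neither passed in RNA or footprints (edgeR adjusted p of 0.098 or more), though Atp5g2 footprints did without RPF HF 1 (−1.57, adjusted p = 0.036).

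In the stalk that ties head and membrane part, Atp5o, named after its values were seen, fell by 0.76 in RNA (SE 0.18) and 1.03 in footprints (SE 0.14). Atp5j, another stalk subunit, had RNA of 143, 135 and 149 CPM against 85.7, 103 and 87.5 CPM (−0.64, edgeR adjusted p = 0.0011) and footprints of 228, 278 and 356 CPM against 255, 295 and 327 CPM. The Atp5j groups lay apart in RNA and overlapped in footprints, and the TE call (0.68, edgeR adjusted p = 0.034) held in 4 of 12 fits with a library left out (0.53 to 0.83). Atp5l, a membrane subunit, had the highest footprint change in the complex (1.08, edgeR adjusted p = 0.05, not called), on overlapping values of 12, 14.6 and 13.9 CPM against 25.1, 53.0 and 7.51 CPM, and passed without RPF HF 3 (1.43, adjusted p = 0.0048). Cycs, the mobile carrier cytochrome c, had RNA of 9.51, 9.71 and 19.6 CPM against 6.93, 7.74 and 5.80 CPM, low in every HF library without passing the test (−0.93, edgeR adjusted p = 0.19). Atp5g1, Atp5g2, Atp5l, Cycs, Cox7c, Cox6c, Ndufb4 and Ndufs5 belong to families with near-identical copies, and their values are uncertain where reads could be split between copies.

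Of the mitochondrial sets, the complex I genes had the lowest ratio. The 7 complex I genes summed to 3009 ± 208 CPM of RNA in control and 1786 ± 239 CPM in HF libraries (ratio 0.593), mt-Cytb of complex III had 1050 ± 103 and 743 ± 133 CPM (0.707), and the 3 complex IV genes summed to 2382 ± 112 and 1673 ± 54.7 CPM (0.703). These ratios were not tested against each other. As a share of the nuclear sum, the mitochondrial sum was 64.3, 63.3 and 68.7% in control RNA and 50.1, 57.1 and 62.1% in HF RNA, so every HF library lay below every control. In footprints the share was 1.99, 1.70 and 1.94% in control and 1.90, 1.95 and 1.88% in HF libraries, which overlapped. The nuclear RNA sum leans on Atp5b and Atp5a1 (means of 1766 and 946 CPM in control libraries), whose RNA was not called (−0.10 and −0.15). Gene by gene the RNA medians were −0.51 for mitochondrial and −0.58 for nuclear members. The lower share in HF RNA therefore need not mean that single mitochondrial transcripts fell more.

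Among single mitochondrial genes, mt-Nd5 (mitochondrial DNA from 11742 to 13565), a core subunit of the proton-pumping arm, had the lowest RNA change. Its RNA was 487, 481 and 495 CPM in control and 233, 268 and 280 CPM in HF libraries (log2 fold change −0.90, SE 0.11, edgeR adjusted p = 1.3e-10). Its footprints were 62.6, 53.4 and 79.3 CPM in control and 31.8, 39.8 and 45.1 CPM in HF libraries. The groups lay apart in both assays. Of the 7 mitochondrial genes tested in footprints only mt-Nd5 passed, at −0.77 (SE 0.25, edgeR adjusted p = 0.014), and that call was lost without RPF control 3 (−0.67, adjusted p = 0.053) or RPF HF 1 (−0.58, 0.11). Its TE change was 0.13 (edgeR adjusted p = 0.79).

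The catalytic core of complex IV, mt-Co1 (mitochondrial DNA from 5328 to 6872), fell in RNA alone. Its RNA was 2294, 2169 and 2394 CPM in control and 1541, 1603 and 1661 CPM in HF libraries (−0.51, SE 0.08, edgeR adjusted p = 1.5e-07). Its footprints overlapped, at 110, 74.7 and 80.7 CPM against 100, 111 and 116 CPM (0.26, SE 0.19, edgeR adjusted p = 0.29), and the TE change was 0.76 (SE 0.17, edgeR adjusted p = 0.0024). For mt-Cytb, the cytochrome b of complex III, RNA was 1011, 972 and 1167 CPM against 591, 804 and 834 CPM (−0.50, SE 0.10, edgeR adjusted p = 2e-05) and footprints were 86.7, 83.8 and 98.8 CPM against 96.4, 114 and 84.5 CPM. Its groups lay apart in RNA and overlapped in footprints, and its TE call (0.66, edgeR adjusted p = 0.021) held in 7 of 12 fits with a library left out (0.48 to 0.72).

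A further 4 mitochondrial transcripts of complex I fell in RNA with footprints that did not pass. The transcript of mt-Nd1 had 1398, 1237 and 1547 CPM against 744, 755 and 966 CPM (−0.76, edgeR adjusted p = 2.8e-10), with footprints of 34.1, 32.2 and 33.4 CPM against 31.8, 18.2 and 45.1 CPM. That of mt-Nd2 had 530, 509 and 507 CPM against 262, 314 and 342 CPM (−0.75, edgeR adjusted p = 2.3e-08), with footprints of 29.7, 38.8 and 23.6 CPM against 24.5, 23.2 and 26.3 CPM. That of mt-Nd6, read from the opposite strand, had 371, 430 and 424 CPM against 226, 234 and 299 CPM (−0.68, edgeR adjusted p = 1.5e-06), with footprints of 25.3, 13.4 and 23.6 CPM against 18.9, 6.63 and 11.3 CPM. The RNA groups of these 3 genes did not overlap and the footprint groups did. For mt-Nd4 the RNA was 162, 147 and 236 CPM against 109, 135 and 140 CPM (−0.50, edgeR adjusted p = 0.0064), a call lost without RNA control 3 (−0.27, adjusted p = 0.21) or without RNA HF 1 (−0.36, 0.086), and its footprints of 8.84, 16.4 and 11.1 CPM against 15.0, 9.94 and 3.76 CPM overlapped.

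The remaining mitochondrial mRNAs had few counts. Values of mt-Co2 were 37.3, 54.1 and 55.8 CPM of RNA against 38.1, 31.9 and 44.6 CPM, and those of mt-Co3 34.9, 55.5 and 50.7 CPM against 39.8, 38.7 and 22.0 CPM. Values of mt-Nd3 were 9.51, 25 and 26.9 CPM against 12.1, 10.6 and 21.4 CPM, and those of mt-Atp6 29.3, 20.8 and 23.8 CPM against 13.9, 19.3 and 16.2 CPM. Only mt-Atp6 did not overlap. None of mt-Co2, mt-Co3, mt-Nd3 and mt-Atp6 passed in RNA (edgeR adjusted p = 0.34, 0.17, 0.52 and 0.22), and mt-Nd4l and mt-Atp8 were not tested. The ribosomal RNAs of the same genome, mt-Rnr1 and mt-Rnr2, fell by 1.41 (SE 0.21) and 1.39 (SE 0.27) in RNA. They took only 0.013 to 0.035% of control and 0.008 to 0.012% of HF RNA counts. How much rRNA the library preparation kept is not known here, so these values need not be rRNA levels in the cells.

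Per length the counts of the mitochondrial mRNAs were uneven. In control RNA the order was mt-Co1 (1479 ± 72.8 CPM per kilobase of gene, SD, n = 3), mt-Nd1 (1457 ± 162), mt-Cytb (918 ± 90.3), mt-Nd6 (787 ± 62.5), mt-Nd2 (496 ± 12.6), mt-Nd5 (267 ± 3.87), mt-Nd4 (132 ± 34.5), mt-Co2 (71.7 ± 15.0), mt-Co3 (60.0 ± 13.7), mt-Nd3 (58.8 ± 27.4), mt-Atp6 (36.2 ± 6.36), mt-Atp8 (8.24 ± 1.72) and mt-Nd4l (6.55 ± 1.71). Neighbours that differed by less than the sum of their SDs were mt-Co1 and mt-Nd1, mt-Cytb and mt-Nd6, mt-Co2 and mt-Co3, mt-Co3 and mt-Nd3, mt-Nd3 and mt-Atp6, and mt-Atp8 and mt-Nd4l. In HF cells mt-Co1 had 1037 ± 39.0 and mt-Nd1 859 ± 131 CPM per kilobase of RNA. Footprints per kilobase had another order, led in control cells by mt-Cytb (78.5 ± 6.94), mt-Co1 (57.3 ± 12.4), mt-Nd6 (40.0 ± 12.5) and mt-Nd5 (35.7 ± 7.19). The genes mt-Atp8 and mt-Atp6, mt-Nd4l and mt-Nd4, and mt-Nd5 and mt-Nd6 overlap in the RefSeq annotation, and nuclear copies of mitochondrial DNA are known, so reads that match more than 1 of these cannot be assigned with certainty. The lowest genes in control RNA, mt-Co2, mt-Atp8, mt-Atp6, mt-Co3, mt-Nd3 and mt-Nd4l, lie side by side from 7013 to 10173 of mitochondrial DNA. Whether reads from this stretch were lost to a nuclear copy was not tested. The order of counts need not be the order of transcript levels.

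Relative to RNA, nuclear subunits had more footprints than the bulk of genes and mitochondrial subunits far fewer. The median log2 ratio of footprint to RNA CPM was 0.97 in control and 1.26 in HF libraries over 75 nuclear members, −4.01 and −3.75 over 8 mitochondrial members, and 0.12 and 0.12 over 8262 protein-coding genes. In control cells 69 of the 75 nuclear ratios were above 0, and the ratio was higher in HF than in control cells for 55 of the 75. For all protein-coding genes only the medians are given here, not the matching shares. By complex the nuclear medians in control and HF cells were 0.88 and 1.39 for complex I, 1.00 and 1.20 for II, 1.24 and 1.32 for III, 1.09 and 1.38 for IV and 0.94 and 1.05 for V. All 8 mitochondrial ratios were below every nuclear ratio in both treatments, from −5.38 (mt-Nd1) to −2.05 (mt-Nd3) in control cells. Footprints were taken from the monosome fraction, and how well that fraction holds mitochondrial ribosomes was not tested.

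**Figure D5:**
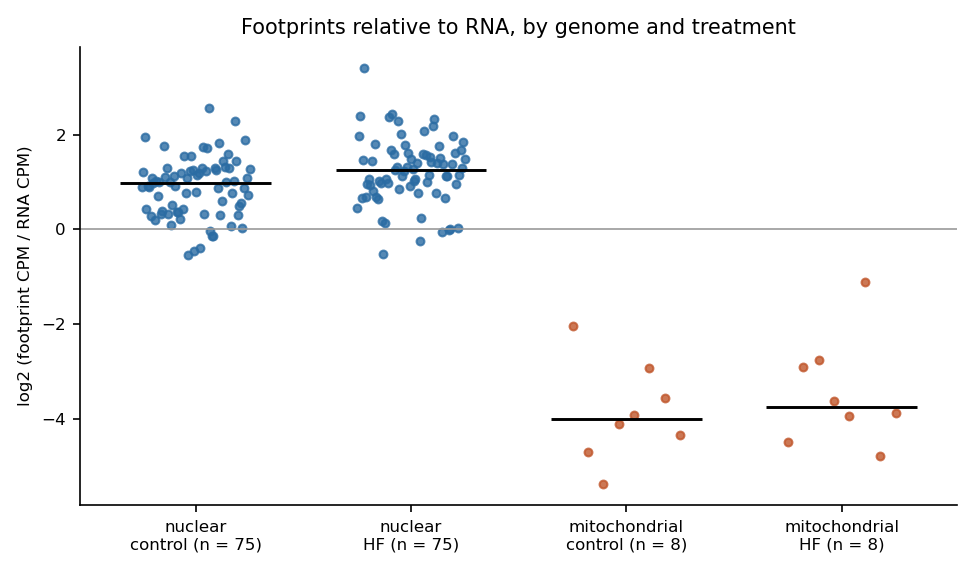
Log2 ratio of footprint CPM to RNA CPM for each subunit gene with counts in every library, as the mean over 3 same-numbered libraries, by genome and treatment (bars are medians). Nuclear subunits lie mostly above 0 with medians of 0.97 and 1.26, and mitochondrial subunits below, with medians of −4.01 and −3.75.

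Genes that assemble or serve the chain gave calls in both directions. Of 41 assembly factors tested in RNA, 6 fell and 3 rose, with a median of −0.23, and in footprints 5 of 40 fell and 6 rose, with a median of −0.30. These are smaller shares than the 43.7% and 43.2% called over all genes tested. Timmdc1, which helps build the membrane arm of complex I, rose by 1.64 in RNA (SE 0.31, edgeR adjusted p = 9.4e-06), and Sco1, a copper chaperone of complex IV, by 0.90 (SE 0.30), a call that held in 5 of 6 fits with a library left out (0.71 to 1.15). Uqcc3, a factor for cytochrome b, fell by 2.21 in RNA (SE 0.53, edgeR adjusted p = 0.0004) and the complex I factor Ndufaf2 by 1.41 (SE 0.40), and both held in all 6.

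Of 29 genes that express the mitochondrial genome, 2 rose and 2 fell in RNA (median −0.05), and in footprints 3 rose and 8 fell of 31 (median −0.31), where 43.7% and 43.2% of all genes tested were called. Hsd17b10, part of mitochondrial RNase P, fell by 0.95 in RNA (SE 0.31), a call held in 5 of 6 fits with a library left out (−1.06 to −0.81), and by 1.09 in footprints (SE 0.18). The helicase Twnk fell by 0.89 in RNA (SE 0.25). In footprints Mtif2, the mitochondrial initiation factor, fell by 1.46 (SE 0.37), Polg, the mitochondrial DNA polymerase, fell by 1.11 (SE 0.30), and Mgme1, a mitochondrial exonuclease, rose by 1.62 (SE 0.37). Polg was also the 1 gene of this list called in TE (−1.02, edgeR adjusted p = 0.042), a call that held in 4 of 12 fits (−1.26 to −0.75).

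Among 8 tested regulators of nuclear respiratory genes, 2 rose, 1 fell and 5 did not pass in RNA, and in footprints 2 of 7 rose and 0 fell. Over all genes tested 43.7% and 43.2% were called. Gabpb2 rose by 1.28 in RNA (SE 0.15, edgeR adjusted p = 1.5e-10) and Gabpa by 0.70 (SE 0.19, edgeR adjusted p = 0.0015), and both held in all 6 fits with a library left out. Esrra, which encodes the nuclear receptor ERRalpha, fell by 1.34 (SE 0.45, edgeR adjusted p = 0.012), held in 4 of 6 (−1.73 to −1.12). Gabpa, Gabpb1 and Gabpb2 encode subunits of GABP, an ETS-family factor known to bind promoters of respiratory genes. In footprints Gabpb2 rose by 1.12, held in all 6 fits, and Gabpb1 by 0.84, held in 4 of 6 (0.53 to 1.0). Gabpa footprints did not pass (−0.15, edgeR adjusted p = 0.51), and its TE fell by 0.85 (edgeR adjusted p = 0.027), held in 7 of 12 (−1.06 to −0.72). Among 16 other electron inputs and ubiquinone genes tested in RNA, 2 fell and 1 rose, and in footprints 2 of 17 fell and 4 rose, also smaller shares than the 43.7% and 43.2% over all genes tested. Sqor, which feeds electrons from sulfide, fell by 2.18 in RNA (SE 0.65), and Etfdh, which passes electrons from fatty acid oxidation to ubiquinone, fell by 1.4 in footprints (SE 0.26).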

How the data were processed

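Raw whole-number counts per gene were deposited by the authors for each library. Per the submitters' processing notes, Bowtie, HISAT2, HTSeq and the GRCm38 build were used. Not given in the sources used here were the counted feature, the use of strand and the handling of reads with several matches. Strand and shared sequence can therefore affect overlapping genes and gene copies. The deposited low counts from 1 to 50 were even in 75.6% of cases for nuclear protein-coding genes in RNA and in 51.5% for mitochondrial mRNAs. Some fragments may therefore have been counted more than once, which was not tested. If so, the limits given for 0 counts are too low, and levels of nuclear and mitochondrial genes are not on quite the same scale.

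Counts were tested with edgeR 4.0.16 (quasi-likelihood, TMM factors, filterByExpr with a minimum count of 10, R 4.3.3, limma 3.58.1), for footprints over protein-coding genes, and p-values were Benjamini-Hochberg adjusted over all genes tested. TE used both assays with TMM within each. The scripts were tested on simulated data with the same spread for every gene. There 49% of 2-fold changes were recovered in TE, against 86% in RNA and 88% in footprints. A TE change that did not pass may therefore have been missed. CPM, log2 fold changes (HF over control) and SEs were computed here. Nuclear genes are not compared by level, since transcript lengths were not used here. Depth limits precision most for genes under about 10 counts per library.

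Named genes were, in each complex and genome, the members with the highest and lowest change in RNA and footprints, every member called in TE, every tested mitochondrial mRNA, the complex II genes, Cyc1, Cycs, the isoform sets, and up to 3 called genes each way per pathway list. Ndufb1-ps was kept because RefSeq gives it as protein-coding. The members and lists were chosen with earlier results of these data known. Same-numbered libraries did not deviate together. Alternatives were DESeq2 1.42.0, other scalings and filters, all genes in place of protein-coding genes for footprints, Ndufa4 counted in complex I, a replicate block, and each library left out.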

Additional observations from a re-analysis of the deposited data

How the results depend on the processing

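Leaving out each library in turn gave nuclear medians in RNA from −0.57 to −0.49 (−0.58 with all) and mitochondrial medians from −0.69 to −0.46 (−0.51 with all, −0.69 without RNA control 1). It gave 4 to 8 nuclear members higher in footprints (7 with all), 0 to 1 mitochondrial members lower in footprints (0 without RPF control 3 or RPF HF 1), 0 to 1 nuclear members lower in TE and 1 to 3 mitochondrial members higher in TE. The nuclear member lower in TE was Ndufb10 without RNA control 1 and Atp5g3 without RNA HF 1 or RPF HF 1. Upper-quartile scaling gave 4 nuclear members higher in footprints and a nuclear footprint median of −0.28 in place of −0.19. Plain library totals without mitochondrial genes and Gm42418 gave nuclear log2 footprint to RNA ratios of 0.71 in control and 0.98 in HF cells. With Ndufa4 in complex I, that complex had a footprint median of −0.09 in place of −0.15. The cause of these shifts was not tested.

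The same-numbered libraries were not paired by the data, with correlations of their deviations from −0.031 to 0.024, and the labels give no shared batch. With a replicate block, member calls were 44 in RNA, 33 in footprints and 16 in TE. With that block 3 mitochondrial members were higher in TE in place of 2, and over all genes 3933, 3551 and 1043 were called in place of 3995, 3624 and 1115. DESeq2 called 37, 29 and 16 members, and no filter on low counts 36, 34 and 13. No called direction reversed under any alternative run. Depth limits the low members most: Cycs, Cox5b, Uqcrb, Atp5l and the mitochondrial footprints rest on few counts.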
